A study of Mus musculus with 12 samples.

Results

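The genes described here are 41 components of the machinery that copies chromosomal DNA, read in sorted mouse splenic B cells labelled fl/fl or +/fl for the B-lineage transcription factor gene Ebf1. Members were found by name: each probe whose gene name on the array was a member, or its older symbol, was taken, and the brightest probe stood for the gene. All 41 members had a probe and all 41 passed the filter on dim probes, among 17134 genes tested; 40 of them were well above background on all 12 arrays, Orc1 was on 10, and none was saturated. For comparison, 42 other replication genes (further subunits, fork proteins, histone chaperones and nucleotide synthesis enzymes) were listed, and all 42 were measured.

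Every mouse was C57BL/6 and carried RERT-Cre, a Cre recombinase that becomes active with tamoxifen. All of them, controls included, received 3 mg of tamoxifen-citrate on 4 consecutive days, and spleens were taken on day 10. The labels name Ebf1 fl/fl mice, in which both Ebf1 alleles are floxed, and heterozygote Ebf1 +/fl controls, which keep an allele that Cre does not remove. B cells of each genotype were either resting or LPS-stimulated, which makes 4 groups of 3 arrays: resting fl/fl, resting +/fl, LPS fl/fl and LPS +/fl. Lipopolysaccharide (LPS) is a bacterial cell wall component that drives B cells to divide. Neither the labels nor the file headers state the LPS dose, its duration or the age of the mice. The labels name 2 sorting gates (B220+AA4.1- cells, and those of them that were CD21lo) without saying which array had which, so gate and group cannot be told apart. They do not say that the 3 samples of a group came from separate mice, so the p-values refer to the spread among the samples as deposited, part of which may be technical. A sample number is shared by resting +/fl 3 and LPS +/fl 1.

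DNA replication begins at origins, which the origin recognition complex (Orc1, Orc2, Orc6 and others) marks. Cdc6 and Cdt1 then load the MCM helicase ring onto the origin, and geminin (Gmnn) binds Cdt1 and stops a repeat loading in the same cycle. The kinase Cdc7 with its activator Dbf4, together with Mcm10, Cdc45 and the GINS complex, turns the ring into a moving helicase. Primase and polymerase alpha start new strands, polymerases delta and epsilon extend them on the PCNA clamp, replication factor C (RFC) loads that clamp, and RPA coats single strands. Fen1, ribonuclease H2 and ligase Lig1 finish the lagging strand, Chaf1a and Chaf1b place histones on the new DNA, and Tipin helps protect a stalled fork. Resting B cells are mostly outside the cell cycle, and LPS brings them into it.

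Many replication genes are known targets of the E2F transcription factors, which bind near the start of transcription, so the bases before the start sites were read. RefSeq's promoter table (GRCm38.p6) held 33 of the 41 members. Mcm4, Gins1, Gins2, Gmnn, Rfc2, Prim2, Pole and Tipin were not matched. The 250 bases before the start were searched on both strands for the E2F core words TTTCCCGC, TTTCGCGC, TTTGCCGC and TTTGGCGC. A word was found in 7 of the 33 members (21.2%): Orc1, Cdc6, Mcm5, Mcm6, Mcm7, Rfc3 and Pola1. Of 10801 array genes with a window, 392 (3.63%) held one, as did 2.16% of all 27025 genes of the table. The word CCAAT stood in 63.6% of the members' windows counted by gene, against 39.9% of the array genes, and the E-box CACGTG in 15.2% against 9.52%. These are counts of letters with no test, and the words overlap one another in Mcm5 and Mcm6. 3 windows in which the E2F word lies outside any annotated gene are printed to show where it sits, and that of Cdt1, the member with the smallest p after LPS, to show a window without it. Letters run 5′ to 3′ on the gene's strand and capitals mark the E2F words. Mcm5 (chr8:75109259-75109467, plus strand) has overlapping words that begin 153 and 149 bases before the start; its stretch is printed without the last 41 bases before the start, which lie within the annotated gene span. Mcm6 (chr1:128359706-128359955, minus strand) has 3, beginning 110, 106 and 47 bases before it. Rfc3 (chr5:151651209-151651458, minus strand) has 1, beginning 10 bases before it. Cdt1 (chr8:122567765-122568014, plus strand) has none of these words in the window.
Mcm5: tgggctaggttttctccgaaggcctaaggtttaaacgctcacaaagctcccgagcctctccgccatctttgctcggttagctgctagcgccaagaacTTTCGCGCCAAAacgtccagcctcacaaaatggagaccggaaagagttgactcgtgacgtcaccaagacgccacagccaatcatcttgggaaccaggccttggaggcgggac
Mcm6: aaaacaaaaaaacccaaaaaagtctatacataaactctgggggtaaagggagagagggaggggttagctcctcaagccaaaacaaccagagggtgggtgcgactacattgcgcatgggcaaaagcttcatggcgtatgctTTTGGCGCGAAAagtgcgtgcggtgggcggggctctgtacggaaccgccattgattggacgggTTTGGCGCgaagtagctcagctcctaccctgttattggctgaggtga
Rfc3: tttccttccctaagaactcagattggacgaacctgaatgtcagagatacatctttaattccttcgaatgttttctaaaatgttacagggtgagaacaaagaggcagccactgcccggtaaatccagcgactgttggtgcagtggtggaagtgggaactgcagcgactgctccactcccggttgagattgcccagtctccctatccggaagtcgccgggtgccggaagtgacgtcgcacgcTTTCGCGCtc
Cdt1: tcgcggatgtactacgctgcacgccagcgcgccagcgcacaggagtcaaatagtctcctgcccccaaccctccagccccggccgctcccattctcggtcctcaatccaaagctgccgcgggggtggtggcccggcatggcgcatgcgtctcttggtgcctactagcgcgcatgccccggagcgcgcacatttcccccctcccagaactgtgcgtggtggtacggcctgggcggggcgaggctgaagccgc

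Values below are log2 signals relative to their own array: the processed signal minus the array's 75th percentile, so that 0 is the level of the probe at that percentile. A probe's level is compared with itself across arrays and never with another probe's. Between 54.4% and 61.4% of spots were well above background on 11 arrays, and 83.2% on LPS fl/fl 2, whose median signal was 93.0 against 19.0 to 35.9 on the others. Arrays of a group correlated at 0.969 to 0.988 over genes. All 8 B cell markers were well above background on all arrays. Ebf1 itself gave no single answer at its 2 probes. The brighter probe read 1.68 to 1.81 on resting fl/fl arrays and 0.75 to 1.40 on resting +/fl arrays, which is higher in the arrays labelled fl/fl (0.62, adjusted p 0.0382). The dimmer probe read −5.01 to −4.21 against −3.16 to −2.18 (−1.90, adjusted p 0.0432). After LPS neither probe passed the threshold between genotypes (0.12, adjusted p 0.673, and −0.92, adjusted p 0.316). No source names the floxed part relative to either probe, so neither checks the genotype labels, and the groups are named as labelled throughout.

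**Figure D1:**
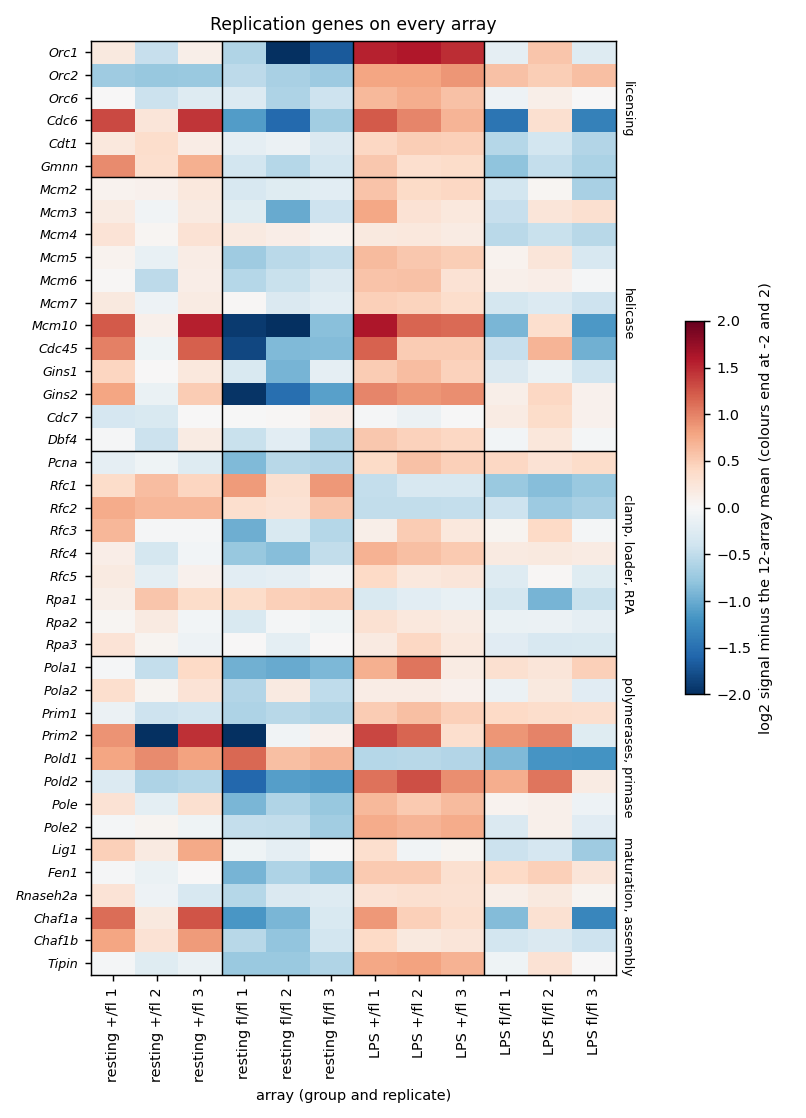
Heat map of the 41 replication genes (rows, in order of role) on the 12 arrays (columns, by group and replicate); colour is the log2 signal minus the gene's mean over the 12 arrays, and ends at −2 and 2. The 3 resting fl/fl columns are blue for most genes, and the LPS +/fl columns are red for most; Rfc1, Rfc2, Rpa1 and Pold1 run the other way with LPS.

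Resting cells of the groups labelled fl/fl and +/fl were compared first. In resting cells 17 of the 41 members fell in fl/fl relative to +/fl and 0 rose, where 8.81% of all genes tested were called, 4.18% lower and 4.63% higher. At an unadjusted p under 0.05 there were 26, each of them lower, where 12% of all genes were lower and 15.7% higher at that p. The median log2 difference of the members was −0.53, against 0.05 over all genes tested, and 37 of 41 were below 0. With normexp background correction it was −0.28 against 0.03 over all genes, with 0 called. In 25 members the 3 fl/fl arrays lay wholly below the 3 +/fl arrays, where 12.6% of all genes did so, and in 0 wholly above them, where 18.7% did. The decrease reached at least 2-fold in 8 members: Mcm10, Cdc6, Gins2, Cdc45, Chaf1a, Orc1, Chaf1b and Gmnn.

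Among the 6 licensing genes, 4 fell at rest. Geminin, the inhibitor of Cdt1, had the smallest p of them. Gmnn (probe at chr13:24117785-24117844, mm7) read 2.66, 2.46 and 2.66 on the fl/fl arrays and 3.97, 3.36 and 3.74 on the +/fl arrays. Every fl/fl array was below every +/fl array, and the difference was −1.10 (SE 0.16, 2.14-fold, adjusted p 0.00715). Cdt1 read 3.77, 3.83 and 3.67 against 4.16, 4.31 and 4.11, a smaller difference of −0.44 (SE 0.10, adjusted p 0.0301) with groups that also did not overlap. The MCM loader Cdc6 fell by 2.11 (SE 0.48, adjusted p 0.0311) and the ATPase subunit Orc1 by 1.49 (SE 0.39, adjusted p 0.0451). Orc1 was well above background on only 1 of the 3 resting fl/fl arrays. Both of these probes were dim, and their standard errors are several times that of Cdt1. The other subunits of the origin recognition complex did not pass: Orc2 differed by 0.10 (95% interval −0.09 to 0.29) and Orc6 by −0.21 (−0.51 to 0.10).

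Of the 12 helicase genes, 4 fell at rest, and 3 of those (Gins2, Mcm10 and Cdc45) are factors that activate the ring. Gins2, a subunit of the GINS complex (chr8:119223701-119223760, mm7), read −2.67, −2.22 and −1.79 on fl/fl arrays and 0.08, −0.85 and −0.21 on +/fl arrays. The groups were apart by almost a whole log2 unit at their nearest arrays, and the difference was −1.90 (SE 0.26, 3.73-fold, adjusted p 0.00586). Mcm10 fell by 2.65 (SE 0.51, 6.28-fold, adjusted p 0.0170), the largest difference of the 41, with values of −2.07, −2.48 and −0.99 against 1.07, −0.05 and 1.40. Cdc45 fell by 1.89 (adjusted p 0.0391). Of the 6 MCM ring subunits only Mcm5 fell, by 0.60 (SE 0.15, adjusted p 0.0390). The other ring subunits gave −0.65 for Mcm3, −0.38 for Mcm2, −0.32 for Mcm6, −0.24 for Mcm7 and −0.07 for Mcm4, none past the threshold. Mcm3 has another probe, at which it fell by 0.80 (adjusted p 0.0192). Gins1 gave −0.69 (adjusted p 0.0521) at its brighter probe and fell by 0.97 (adjusted p 0.0375) at its other. Dbf4 gave −0.33 and its kinase Cdc7 0.27, neither past the threshold, and the 2 dimmer Cdc7 probes gave −0.25 and −0.28.

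Of the 9 genes of the clamp, its loader and RPA, 2 fell at rest, and the median was −0.20. Rfc4, a clamp loader subunit (chr16:22772565-22772624, mm7), read 1.94, 1.84 and 2.20 on fl/fl arrays and 2.82, 2.34 and 2.64 on +/fl arrays. The groups did not overlap, and the difference was −0.60 (SE 0.14, 1.52-fold, adjusted p 0.0301). The clamp Pcna read 4.57, 4.90 and 4.87 against 5.27, 5.36 and 5.19, a fall of 0.49 (SE 0.11, adjusted p 0.0315). Rfc3 gave −0.83 with a standard error of 0.24 and missed the threshold at an adjusted p of 0.0578. Rfc1, Rfc2, Rfc5, Rpa1, Rpa2 and Rpa3 lay between −0.29 and 0.20.

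Of the 8 polymerase and primase genes, 3 fell at rest. The catalytic subunit of polymerase epsilon, Pole (chr5:109503869-109503928, mm7), read 0.36, 0.67 and 0.51 on fl/fl arrays and 1.56, 1.08 and 1.60 on +/fl arrays. The highest fl/fl array was below the lowest +/fl array, and the difference was −0.90 (SE 0.15, 1.86-fold, adjusted p 0.0108). Its partner subunit Pole2 fell by 0.53 (SE 0.12, adjusted p 0.0266), and the polymerase alpha subunit Pola1 by 0.92 (SE 0.25, adjusted p 0.0493). Neither polymerase delta member passed the threshold: Pold2 gave −0.78 (adjusted p 0.0631) and the catalytic subunit Pold1 −0.03 (95% interval −0.36 to 0.30). The primase subunit Prim1 gave −0.29 (adjusted p 0.0882). Pola2 gave −0.53 (adjusted p 0.119) at its brighter probe and 0.47 (adjusted p 0.514) at its other. Prim2 could hardly be compared, because it read −3.59 on resting fl/fl 1 and −4.20 on resting +/fl 2 and between −0.71 and 0.99 on the other 10 arrays. Those 2 low arrays were on the same slide, and the part of the slide in it was not tested.

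Of the 6 genes of lagging strand maturation, chromatin assembly and fork protection, 4 fell at rest. Chaf1b, a subunit of the histone chaperone CAF-1 (chr16:93972006-93972066, mm7), had the smallest p of all 41. It read 0.53, 0.29 and 0.72 on fl/fl arrays and 1.88, 1.38 and 1.94 on +/fl arrays. The groups were well apart, with a difference of −1.22 (SE 0.16, 2.33-fold, adjusted p 0.00575). The other subunit, Chaf1a, fell by 1.65 (SE 0.43, adjusted p 0.0432). The flap nuclease Fen1 (chr19:9879810-9879869, mm7) read 1.49, 1.80 and 1.63 against 2.39, 2.28 and 2.42. It fell by 0.72 (SE 0.11, 1.65-fold, adjusted p 0.00903), with tight groups on both sides. The fork protein Tipin fell by 0.56 (SE 0.11, adjusted p 0.0209). Ligase Lig1 gave −0.56 (adjusted p 0.0697), and the ribonuclease H2 subunit Rnaseh2a −0.32 at its brighter probe and −0.63 (adjusted p 0.0481) at its other.

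The resting count leaned on single arrays. It was 5 without resting +/fl 1, 6 without resting +/fl 3, 6, 11 and 10 without resting fl/fl 1, 2 and 3, and 9 without LPS fl/fl 1, which enters through the shared spread. The resting genotypes were balanced over the 3 slides, and the member medians within slides were −0.41, −0.59 and −0.48.

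Markers of other cells moved with the same arrays. The median of 13 measured myeloid markers, of 15 listed, stood at 2.26 and 1.67 above its 12-array mean on resting +/fl 1 and 3, at 0.21 on resting +/fl 2, and at 0.14 to 0.40 on the fl/fl arrays. The 10 measured erythroid markers, of 11 listed, gave 2.13, 0.29 and 2.15 on the +/fl arrays and 0.84, 0.59 and −0.99 on the fl/fl arrays. Summed myeloid signal, in multiples of the array's 75th percentile, was 18.8 to 131 in +/fl and 12.1 to 19.0 in fl/fl, and summed erythroid signal 34.5 to 76.7 and 8.01 to 98.8. Of the 14 myeloid markers on the array, 13 were well above background on all 3 arrays of each resting group. Elane, a neutrophil granule protease, was not well above background on any resting array. On resting +/fl 2, which lacked the high myeloid and erythroid readings, 29 of the 41 members read above all 3 fl/fl arrays. On that array 30 of the 41 were at their lowest among the 3 +/fl arrays. The shares of all genes that did so were not counted. With resting +/fl 1 and 3 left out, the median member difference was −0.36, 35 of 41 kept their sign and 0 members were called. The part of other cells in the result was not tested. In sorted bulk samples, fewer cells of a type and less RNA per cell cannot be told apart.

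**Figure D2:**
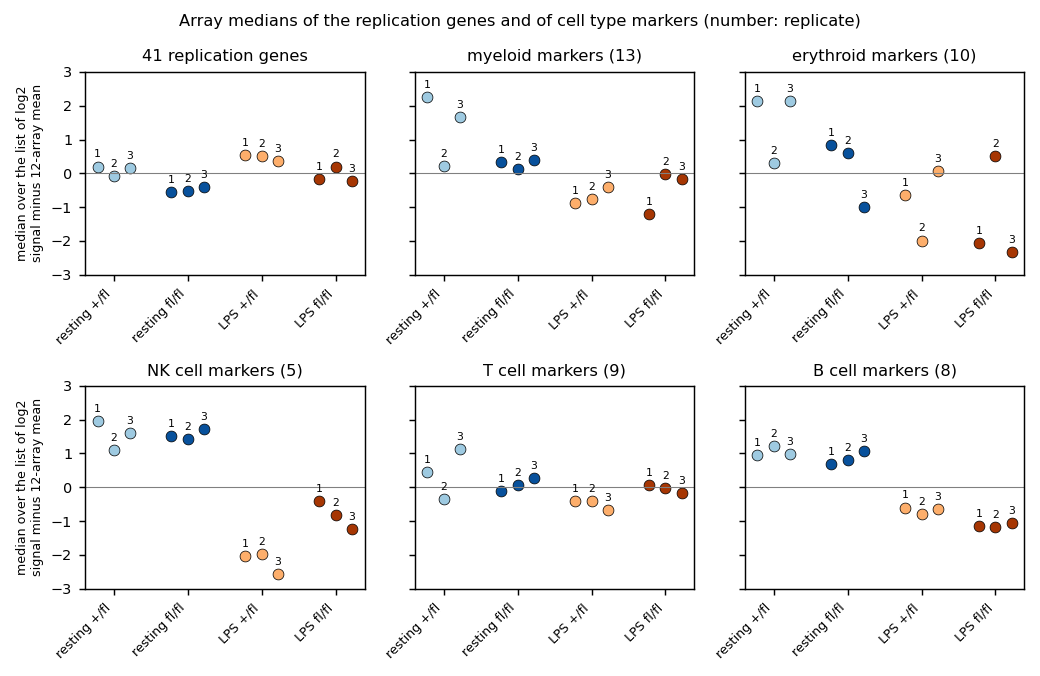
Median over each gene list of the log2 signal minus the 12-array mean (vertical axis), for each array (points, numbered by replicate) in the 4 groups, for the 41 replication genes and 5 lists of cell type markers. The replication genes sit at −0.56 to −0.41 on resting fl/fl arrays and −0.07 to 0.20 on resting +/fl arrays, while myeloid and erythroid medians are high on resting +/fl 1 and 3 only among the resting +/fl arrays.

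The groups labelled fl/fl and +/fl were compared again after LPS. In LPS cells 8 of the 41 members fell in fl/fl and 0 rose, where 1.69% of all genes tested were called, 0.805% lower and 0.887% higher. At an unadjusted p under 0.05 there were 27, each of them lower, where 9.96% of all genes were lower and 11.5% higher at that p. The median difference was −0.52, against 0.04 over all genes. At the brightest probe of each gene 40 of 41 members were below 0, the exception being Cdc7 at 0.26 (adjusted p 0.242). With normexp background correction the members' median was −0.14, against −0.12 over all genes, 29 of 41 kept their sign and 0 were called; once high local backgrounds were reset it was −0.48 against 0.03, 41 of 41 kept their sign and 13 were called. In 30 members the fl/fl arrays lay wholly below the +/fl arrays, where 18.1% of all genes did so, and in 1 (Cdc7) wholly above, where 15.3% did. The 8 that fell were Cdt1, Gmnn, Orc6, Mcm2, Mcm4, Mcm7, Pole2 and Tipin.

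Of the 6 licensing genes, 3 fell after LPS, and the groups of all 6 did not overlap. Cdt1 (chr8:121214998-121215057, mm7) read 3.39, 3.59 and 3.37 on LPS fl/fl arrays and 4.37, 4.45 and 4.43 on LPS +/fl arrays. Spread within a group was 0.05 to 0.12 (SD) on the log2 scale, and the difference was −0.97 (SE 0.10, 1.95-fold, adjusted p 0.00531), the smallest p of the 41. Gmnn read 2.23, 2.55 and 2.39 against 3.57, 3.37 and 3.39. That is again a gap without overlap, of −1.06 (SE 0.16, 2.08-fold, adjusted p 0.0202). Orc6 read 2.92, 3.14 and 3.03 against 3.67, 3.75 and 3.61, a fall of 0.65 (SE 0.13, adjusted p 0.0469). Cdc6 gave −1.79 (SE 0.48, adjusted p 0.0879) and Orc1 −1.50 (SE 0.39, adjusted p 0.0813), both large but dim and not past the threshold. The other Cdc6 probe gave only −0.42 (adjusted p 0.704). Orc2 gave −0.25 (adjusted p 0.139).

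Of the 12 helicase genes, 3 fell after LPS, and all 3 belong to the MCM ring. Mcm4 (chr16:15163918-15163977, mm7) read 3.53, 3.62 and 3.50 on fl/fl arrays and 4.25, 4.27 and 4.22 on +/fl arrays. Both groups were tight, and the difference was −0.70 (SE 0.09, 1.62-fold, adjusted p 0.0151). Mcm7 (chr5:137110218-137110277, mm7) read 3.51, 3.59 and 3.44 against 4.33, 4.30 and 4.21. It fell by 0.77 (SE 0.12, 1.70-fold, adjusted p 0.0208), with every fl/fl array well below every +/fl array. Mcm2 read 1.24, 1.66 and 0.96 against 2.18, 2.0 and 2.02, a fall of 0.78 (SE 0.16, adjusted p 0.0435). The other ring subunits gave −0.57 for Mcm5 (adjusted p 0.0838), −0.41 for Mcm6 (adjusted p 0.210) and −0.39 for Mcm3 (adjusted p 0.398). The activating factors gave −1.87 for Mcm10, −0.97 for Cdc45, −0.80 for Gins1 and −0.73 for Gins2, none past the threshold.

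The clamp and loader group held 0 of 9 called in limma's test after LPS, with 5 at an unadjusted p under 0.05 and a median of −0.37. The closest was Rpa3, the smallest subunit of the single-strand binding protein. It read 1.27, 1.18 and 1.19 on fl/fl arrays and 1.68, 1.92 and 1.71 on +/fl arrays. The groups did not overlap, and the difference of −0.56 (SE 0.12) narrowly missed the threshold (adjusted p 0.0521). Pcna gave −0.13 (95% interval −0.38 to 0.13), and its difference from the resting effect, tested as the interaction, was not past the threshold (0.36, adjusted p 0.242). Rfc1 to Rfc5 lay between −0.44 and −0.11.

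Pole2 was the 1 of 8 polymerase and primase genes that fell after LPS. Pole2 (chr12:67147975-67149374, mm7) read −1.50, −1.11 and −1.44 on fl/fl arrays and −0.47, −0.53 and −0.47 on +/fl arrays. LPS fl/fl 2 was the highest of its group and still below each +/fl array, and the difference was −0.86 (SE 0.12, 1.81-fold, adjusted p 0.0151). Pole gave −0.57 (adjusted p 0.0800), Pold1 −0.52 (adjusted p 0.103), Pold2 −0.45 (adjusted p 0.282) and Prim1 −0.17 (adjusted p 0.343). In the last group Tipin was the 1 of 6 that fell. Tipin (chr9:64334145-64334204, mm7) read 3.34, 3.72 and 3.43 against 4.20, 4.23 and 4.12, a difference of −0.69 (SE 0.11, 1.61-fold, adjusted p 0.0289). Chaf1a gave −1.19 (SE 0.43), Chaf1b −0.64 and Lig1 −0.60, none past the threshold, and Fen1 gave −0.08 (95% interval −0.34 to 0.17).

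Single arrays and the slides also moved this count. It was 2 and 3 without LPS fl/fl 1 and 3, and 3, 1 and 1 without LPS +/fl 1, 2 and 3. LPS fl/fl 1 and 2 were on a slide with no LPS +/fl array. LPS +/fl 2 and 3 were on another, with no LPS fl/fl array. After LPS, slide and genotype can therefore be told apart only in part. With slide as a block 0 members were called at a median of −0.69. On the only slide with both LPS genotypes, 1 array of each, 40 of 41 members were lower in fl/fl at a median of −0.64. LPS fl/fl 2, the array that stood apart, was the highest of its group for 31 of the 41 members and below all 3 +/fl arrays for 32. The shares of all genes that did so were not counted. Without LPS fl/fl 2, 8 members were called, 7 of them the same, at a median of −0.61. Marker lists of other cells moved in both directions. 5 of 5 NK cell markers were higher in LPS fl/fl without overlap (0.89 to 1.61, none past the threshold; summed signal 4.26 to 7.82 against 2.33 to 2.93). The median was 0.73 for the 13 myeloid markers (12 above 0; summed signal 19.4 to 75.9 against 11.6 to 89.3) and 0.54 for the 9 T cell markers (8 above 0; summed signal 9.22 to 11.9 against 7.59 to 8.94). The 10 erythroid markers had a median of −0.57 (7 below 0, 0 called in limma's test and 0 at an unadjusted p under 0.05; summed signal 3.58 to 10.1 against 4.98 to 31.7), the same direction as the replication genes. The 8 B cell markers had a median of −0.37, with Cd79a called lower (summed signal 176 to 217 against 241 to 249). Of the 14 myeloid markers on the array, 9 were well above background on all 3 arrays of each LPS group. C1qa, Elane, Fcgr1 and Mrc1 were not well above background on any LPS +/fl array, and Mrc1 was not on any LPS fl/fl array. The part of these cells in the result was not tested.

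**Figure D3:**
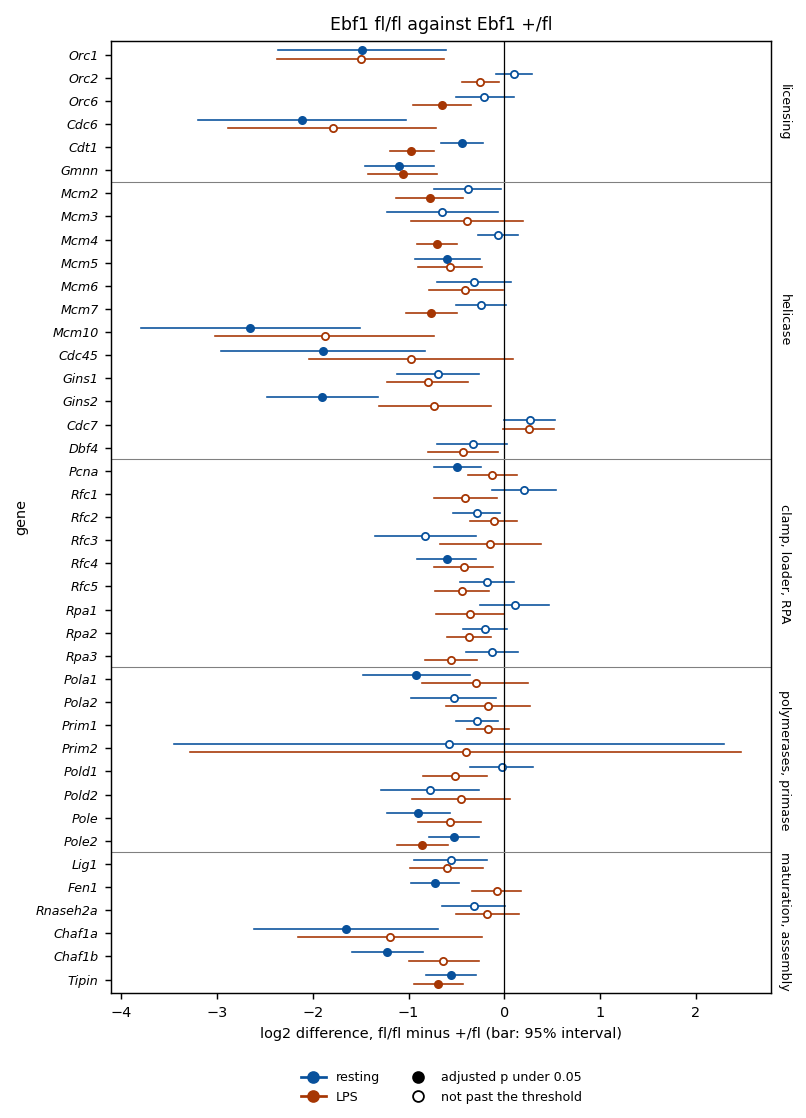
Log2 difference of fl/fl minus +/fl (horizontal axis, with 95% intervals) for each of the 41 replication genes (rows, by role), in resting cells (blue) and after LPS (brown); filled points passed an adjusted p of 0.05. Most points lie left of 0 in both states, 17 resting and 8 LPS points are filled, and 4 genes (Cdt1, Gmnn, Pole2 and Tipin) are filled in both.

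The resting and LPS comparisons share no array. Cdt1, Gmnn, Pole2 and Tipin fell in both, which is 23.5% of the 17 that fell at rest and 50% of the 8 that fell after LPS; 20 members fell in neither. Across the 41 members the 2 sets of differences correlated with a Spearman rho of 0.47 and a Pearson r of 0.73. Genes are not independent replicates, and both sets share probes, slides and the dim probes with large spread, so this is a description. The share of all genes that fell in both was not counted.

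**Figure D4:**
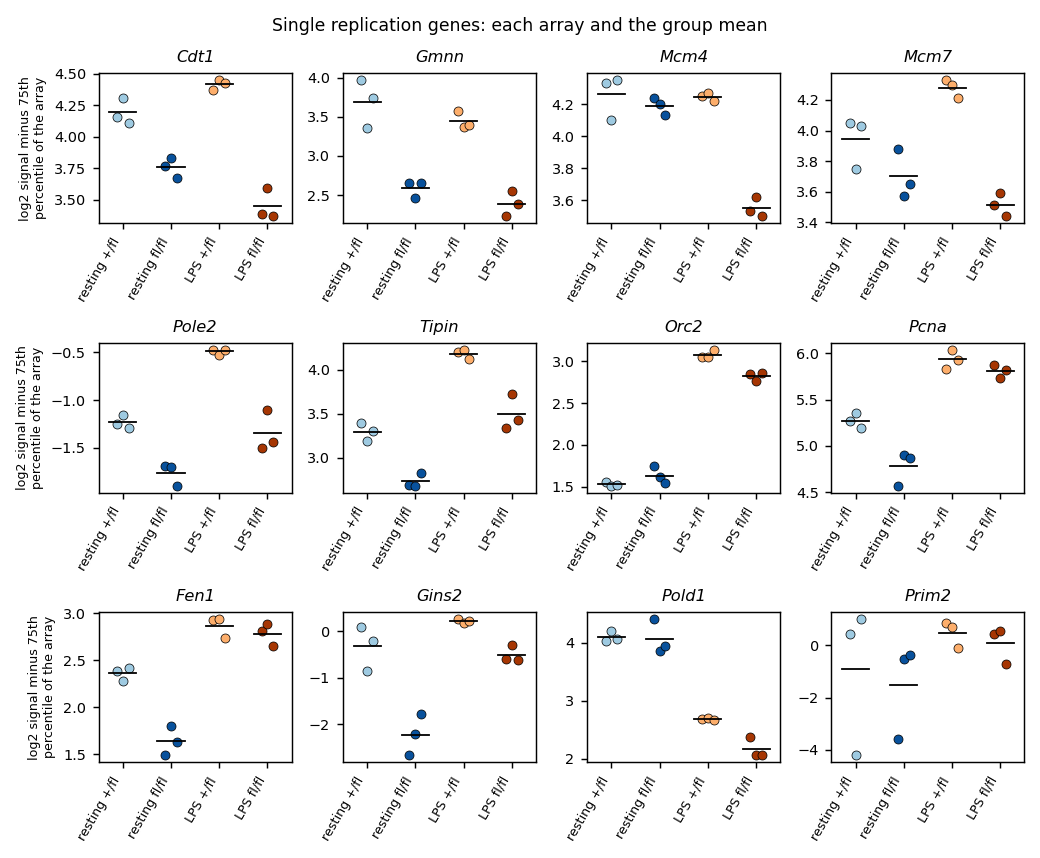
Log2 signal minus the 75th percentile of its array (vertical axis, with its own range in each panel) on every array (points) and the group mean (line) for 12 replication genes in the 4 groups. Cdt1 and Gmnn are lower in fl/fl in both states, Mcm4 and Mcm7 separate clearly after LPS, Fen1, Pcna and Gins2 separate at rest, Pold1 drops with LPS in both genotypes, and Prim2 has 2 very low resting arrays.

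The response to LPS in control cells gives the course that these genes take in cells labelled +/fl. In +/fl cells 16 members rose with LPS and 4 fell, where 57.7% of all genes tested were called, 30.4% higher and 27.4% lower. The count of 20 in 41 is not above that background; the median of the members was 0.33, against −0.03 over all genes. With quantile normalization the split was 11 higher and 8 lower, with the deposited values 10 and 8, and with scaling by the median 11 and 1. Orc2, an origin recognition subunit (chr1:58714407-58714466, mm7), read 3.05, 3.05 and 3.14 on LPS +/fl arrays and 1.55, 1.51 and 1.52 on resting +/fl arrays. The arrays of each group nearly coincide, and the rise was 1.56 (SE 0.09, 2.94-fold, adjusted p 3.06e-07). The primase subunit Prim1 (chr10:127531284-127531343, mm7) read 3.20, 3.30 and 3.18 against 2.58, 2.28 and 2.33. It rose by 0.83 (SE 0.10, 1.78-fold, adjusted p 4.81e-05), without overlap. Tipin read 4.20, 4.23 and 4.12 against 3.39, 3.19 and 3.30, a rise of 0.89 (SE 0.11, adjusted p 8.48e-05). Mcm5 read 3.80, 3.71 and 3.66 against 3.24, 3.01 and 3.31, a rise of 0.54 (SE 0.15, adjusted p 0.0109). Other members that rose include the polymerase delta subunit Pold2 (1.59), Orc1 (1.58), Orc6 (0.89), Pole2 (0.74) and Pcna (0.66).

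The 4 that fell with LPS in +/fl cells were clamp loader, RPA and polymerase genes. Pold1, the catalytic subunit of polymerase delta (chr7:40707373-40707741, mm7), read 2.68, 2.70 and 2.67 after LPS and 4.04, 4.20 and 4.06 at rest. The drop of 1.41 (SE 0.15, 2.66-fold, adjusted p 2.11e-05) stood far outside the spread of either group, and the other Pold1 probe gave −1.49. Rfc2 read 4.51, 4.51 and 4.53 after LPS and 5.74, 5.66 and 5.67 at rest, a fall of 1.17 (SE 0.11, adjusted p 8.53e-06), with −1.32 at its other probe. Rfc1 fell by 0.85 (adjusted p 0.000714) and Rpa1 by 0.57 (adjusted p 0.0119). Subunits of the clamp loader moved in different directions: Rfc4 rose by 0.70 (adjusted p 0.00147), and Rfc3 and Rfc5 gave 0.08 and 0.26, not past the threshold.

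In fl/fl cells 18 members rose with LPS and 6 fell, where 55.6% of all genes tested were called, 29.9% higher and 25.7% lower. The median was 0.45, against 0.06 over all genes; with scaling by the median the split was 5 higher and 5 lower, and without LPS fl/fl 2 the count was 20 at a median of 0.37. Orc2 read 2.85, 2.76 and 2.86 after LPS and 1.74, 1.61 and 1.54 at rest, a rise of 1.20 (SE 0.09, 2.29-fold, adjusted p 1.63e-06). Fen1 read 2.81, 2.89 and 2.65 after LPS and 1.49, 1.80 and 1.63 at rest. The rise of 1.14 (SE 0.11, 2.21-fold, adjusted p 1.55e-05) brought it to the level of LPS +/fl arrays, which read 2.93, 2.94 and 2.74. Pold1 read 2.37, 2.07 and 2.06 after LPS and 4.41, 3.86 and 3.94 at rest, a fall of 1.90 (SE 0.15, 3.73-fold, adjusted p 3.1e-06). Rfc1, the large subunit of the clamp loader (chr5:64616779-64616838, mm7), read 1.98, 1.86 and 1.97 after LPS and 3.57, 3.04 and 3.59 at rest. It fell by 1.46 (SE 0.15, 2.75-fold, adjusted p 1.87e-05). Mcm4 read 3.53, 3.62 and 3.50 after LPS and 4.24, 4.20 and 4.13 at rest, a fall of 0.64 (SE 0.09, adjusted p 0.000247). Rfc2, Rpa1 and Cdt1 fell as well, by 0.99, 1.03 and 0.31. Pold2 (1.92), Gins2 (1.72) and Pola1 (1.30) were among those that rose.

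The 2 responses share no array, but the fit gives them the same estimate of each gene's spread. Of the members that rose, 15 did so in both genotypes, 93.8% of the 16 in +/fl and 83.3% of the 18 in fl/fl. Rfc1, Rfc2, Rpa1 and Pold1 fell in both, which is all 4 in +/fl and 66.7% of the 6 in fl/fl. The share of all genes called the same way in both genotypes was not counted. In +/fl 30.4% of all genes rose and 27.4% fell, and in fl/fl 29.9% rose and 25.7% fell. With LPS the markers of other cells moved as well: 5 of 5 NK cell markers fell in both genotypes, 8 of 13 myeloid markers fell in +/fl and 5 in fl/fl, where 3 rose, and 6 and 5 of 8 B cell markers fell. Summed B cell marker signal was 427 to 616 on the resting arrays and 176 to 249 on the LPS arrays. Their part in the members' responses was not tested.

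**Figure D5:**
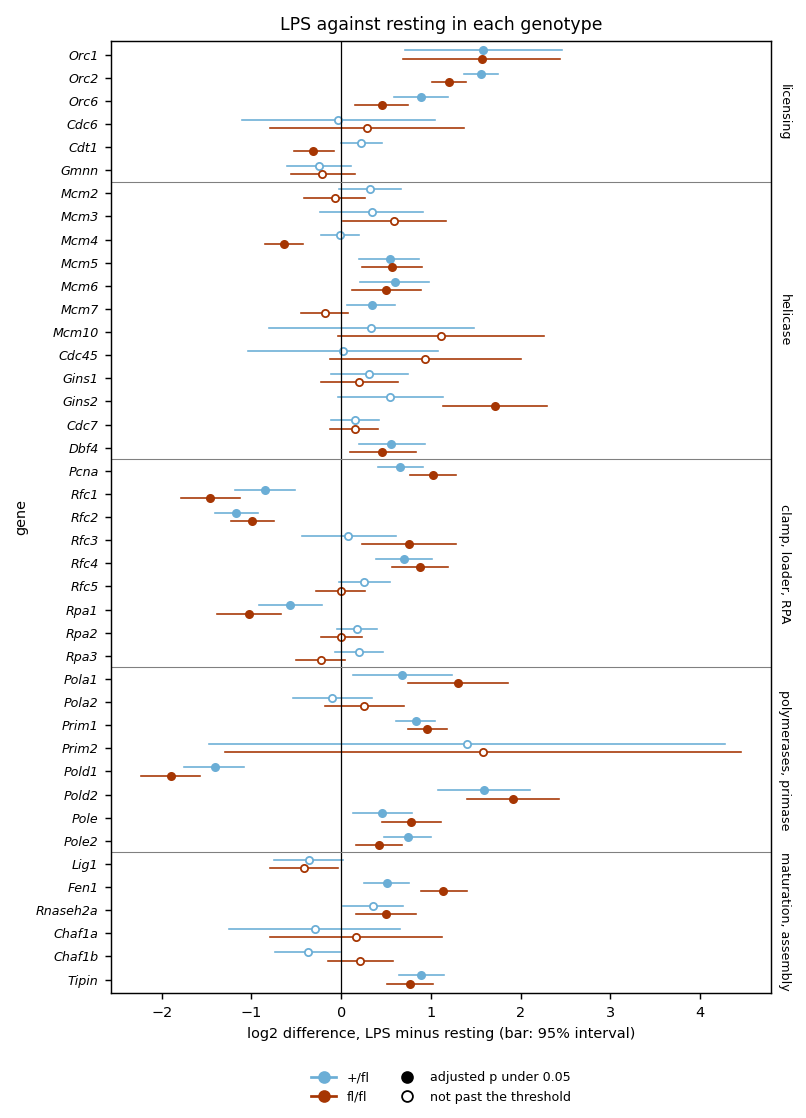
Log2 difference of LPS minus resting (horizontal axis, with 95% intervals) for each of the 41 replication genes (rows, by role), in +/fl cells (light blue) and fl/fl cells (brown); filled points passed an adjusted p of 0.05. Orc1, Orc2 and Pold2 lie far to the right in both genotypes and Pold1, Rfc1, Rfc2 and Rpa1 to the left, while Mcm4 is at −0.01 in +/fl and −0.64 in fl/fl.

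Whether the LPS response differed between genotypes was tested as the interaction, the fl/fl response minus the +/fl response. In limma's test 0 of 41 members were called, where 0.175% of all genes tested were (0.105% higher and 0.07% lower), and 12 members had an unadjusted p under 0.05, as had 20.3% of all genes. Under 2 settings members were called: 1 with the filter on all 12 arrays and 2 with eBayes trend and robust. The smallest p was that of Mcm4, which read 4.33, 4.10 and 4.35 on resting +/fl arrays and stayed near that level after LPS in +/fl but not in fl/fl. Its interaction was −0.63 (SE 0.13, adjusted p 0.0799). Fen1 followed with 0.64 (SE 0.16, adjusted p 0.0996), since it differed between genotypes at rest and not detectably after LPS. Cdt1 gave −0.53 (SE 0.14, adjusted p 0.108): its response was 0.22 in +/fl (adjusted p 0.0812) and −0.31 in fl/fl. Gins2 gave 1.17 (SE 0.37, adjusted p 0.140), with responses of 0.55 in +/fl (adjusted p 0.0966) and 1.72 in fl/fl. Rfc1 gave −0.61 (adjusted p 0.161) and Pold1 −0.49 (adjusted p 0.232). Members called in only 1 of the genotypes are therefore not shown to respond differently.

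The 42 other replication genes were read on the same arrays. In resting cells 12 of them fell in fl/fl and 1 rose, with a median of −0.19. Of all genes tested 4.18% were called lower and 4.63% higher. After LPS 4 fell and 0 rose, with a median of −0.31, where 0.805% of all genes were called lower and 0.887% higher. An unadjusted p under 0.05 was found for 18 of the 42 after LPS, and for 21.5% of all genes. Pold4, the small subunit of polymerase delta, read 1.69, 1.95 and 2.22 on resting fl/fl arrays and 3.62, 3.65 and 3.74 on resting +/fl arrays. It fell by 1.72 (SE 0.16, adjusted p 0.00107) at rest and by 1.28 (SE 0.16, adjusted p 0.0131) after LPS. The thymidine salvage kinase Tk1 fell by 1.38 (adjusted p 0.00321) at rest and 1.06 (adjusted p 0.0202) after LPS. Dna2, a nuclease and helicase, fell by 1.60 (adjusted p 0.00733) at rest, and thymidylate synthase, Tyms, also fell there (adjusted p 0.0134). Dscc1, of an alternative clamp loader, fell by 1.30 (adjusted p 0.0401) after LPS, and Dut, which breaks down dUTP, by 0.60 (adjusted p 0.0446). The gene that rose at rest was Donson, a replication fork protein, by 0.61 (adjusted p 0.0364). It was singled out after its value was seen.

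With LPS, 21 of the 42 rose and 5 fell in +/fl cells, where 30.4% of all genes tested rose and 27.4% fell. In fl/fl cells 20 rose and 10 fell, where 29.9% of all genes rose and 25.7% fell. Pold4 fell most in each, by 3.22 (adjusted p 1.91e-07) and 2.79 (adjusted p 4.54e-07), so it moved the same way as Pold1 while Pold2 rose. The polymerase epsilon subunit Pole3 rose by 1.46 (adjusted p 4.96e-06) in +/fl and 1.29 (adjusted p 1.24e-05) in fl/fl. The histone chaperone Ssrp1 rose by 1.09 (adjusted p 3.55e-06) and 0.96 (adjusted p 9.22e-06). The histone chaperone Nasp rose by 1.32 in +/fl (adjusted p 2.84e-06), and Pole4 by 1.20 in fl/fl (adjusted p 2.44e-05). The interaction called 0 of the 42 in limma's test, and 8 had an unadjusted p under 0.05, as had 20.3% of all genes. The smallest p among them were those of Dna2 (1.19, adjusted p 0.116), Nasp (−0.49, adjusted p 0.131), Topbp1 (−0.40, adjusted p 0.144) and Donson (−0.62, adjusted p 0.158).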

How the data were processed

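RNA of sorted splenic B cells was labelled with Cy3 and hybridised to 12 Agilent mouse arrays (design 014868), per the labels and file headers. The deposited scanner files hold processed intensity from Feature Extraction 9.5.3.1, per the file headers (the submitters' processing notes name version 9.1). The authors' deposited value table holds signal on a linear scale that is quantile normalized, as its columns show, and served as an alternative only. Probe positions are on mm7, per the file headers.

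Intensities were put on the log2 scale and each array's 75th percentile was subtracted. The 87 probes with a flagged spot were left out, and 25678 probes well above background on at least 3 arrays were kept. The brightest probe stood for each of 17134 genes. limma 3.58.1 (R 4.3.3) fitted the 4 group means over the 12 arrays, with p-values adjusted over the genes tested (Benjamini-Hochberg) and called at 0.05. Single probes of a gene were adjusted over all probes. The script was tested on simulated data. The members and all gene lists were chosen with earlier results of these data known. In the resting genotype comparison all 41 members are accounted for by role, and in the other comparisons only some are named. Values on every array are given for the 4 members with the smallest p in each comparison and the smallest of each role, with a few more singled out for comparison, and 4 of the other replication genes are named per comparison. Intervals are 95% intervals of the fit. The number of arrays limits the precision.

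Alternatives changed the background correction, scaling, filter, probe rule, samples, blocks, variance model and threshold. In the main fit the samples were not paired by replicate number. Single-gene results for some erythroid markers are not reported here.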

Additional observations from a re-analysis of the deposited data

How the results depend on the processing

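The 4 members with the smallest p in each comparison and the smallest of each role (29 results of 17 members) kept their direction under all alternatives tried; of their 806 recomputed values, 697 stayed on the same side of the threshold, 102 lost their call and 7 gained one. Over all 41 members the sign was kept by as few as 29 for the LPS genotype effect and 30 for the fl/fl response (both with normexp), 36 for the +/fl response (quantile normalization, the deposited values, or without resting +/fl 1 and 3), 35 for the resting genotype effect (without resting +/fl 1 and 3) and 27 for the interaction (scaling by the median). The counts of members called were less stable. For the resting genotype effect (17 called), the count was 0 with normexp background correction, 5 with scaling by the median, 6 with no filter on dim probes, 0 from the 6 arrays compared alone, 0 without resting +/fl 1 and 3, 3 without the arrays that share a sample number, 4 at an adjusted p of 0.01, and 5 to 17 when an array was left out. For the LPS genotype effect (8 called), it was 0 with normexp, 13 with normexp after high local backgrounds were reset, 4 with quantile normalization, 4 with the deposited values, 1 with no filter, 0 with slide as a block, 0 from the 6 arrays alone, 14 with eBayes trend and robust, 1 without the arrays that share a number, 1 at an adjusted p of 0.01, and 1 to 9 when an array was left out. For the LPS response of +/fl (20 called), it was 1 with normexp, 12 with scaling by the median, 13 at 0.01, and 17 to 21 when an array was left out; for that of fl/fl (24 called), 4 with normexp, 10 with scaling by the median, and 19 to 25. The interaction (0 called) gave 1 with the filter on all 12 arrays, 2 with eBayes trend and robust, and 0 whichever array was left out. The resetting touched 7 spots on resting fl/fl 1, 1 on resting fl/fl 3, 20 on resting +/fl 1 and 16 on LPS +/fl 2. The cause of the other changes was not tested. Scaling by the median moved the median of all genes to −0.49 after LPS between genotypes, to 0.24 for LPS against resting in +/fl and to −0.22 in fl/fl.

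Samples with the same replicate number did not deviate together over all genes (correlations −0.14 to 0.13). With so few samples per group, that cannot exclude a shared mouse or shared handling. It also did not cover resting +/fl 3 and LPS +/fl 1, which share a sample number but not a replicate number. With the replicate block, the count was 8 at rest and 2 after LPS between genotypes. Slide as a block without LPS fl/fl 2, chosen after seeing the data, gave 7 after LPS between genotypes and 14 at rest.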
